A study of Mus musculus with 12 samples.

Results

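The genes described here are 31 genes of the interferon gamma response and of class I antigen presentation, taken by symbol from the 32285 genes of the deposited matrices. They comprise 8 guanylate-binding proteins (Gbp2 to Gbp9), 6 immunity-related GTPases (Iigp1, Igtp, Irgm1, Irgm2, Tgtp1 and Tgtp2), 3 regulators (Irf1, Nlrc5 and Socs1), 5 genes of the immunoproteasome and its PA28 activator (Psmb8, Psmb9, Psmb10, Psme1 and Psme2), 3 peptide-loading genes (Tap1, Tap2 and Tapbp) and 6 class I chains (B2m, H2-K1, H2-D1, H2-Q7, H2-T22 and H2-T23). The members were listed by name and not by a measured value, though with earlier results of these data known. They were followed across CD8, CD4 and γδ T cells, across clone sizes and across the 6 pools of the study.

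T cells were sorted by CD4, CD8 or γδ receptor staining from perfused brains of female mice aged 9 months, and RNA and T cell receptors were read from the same cells by droplet single-cell sequencing. WT mice carried neither transgene. 5XFAD mice, obtained on a C57BL6 congenic background, are a model of amyloid deposition, and PS19 mice, obtained as B6C3F1/J, express mutant human tau from the mouse prion protein promoter. Hemizygous animals of both lines were crossed, PS-5X mice carry both transgenes, and littermates of the 4 genotypes were compared. Each library is a pool of mice: WT-1 holds 10 and WT-2 holds 8, 5XFAD-1 holds 4 and 5XFAD-2 holds 3, and the single PS19 and PS-5X pools hold 4 each. Every pool is thus 1 replicate, and the spread within a pool between mice cannot be seen. The pools with amyloid are 5XFAD-1, 5XFAD-2 and PS-5X, and those without are WT-1, WT-2 and PS19. Sequencing of WT-2 and of 5XFAD-2 took place in a separate run.

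Interferon gamma, made by activated T cells and NK cells, binds the receptor formed by Ifngr1 and Ifngr2 and acts through the kinases Jak1 and Jak2. The signal reaches gamma-activated sites (GAS) in promoters and switches on Irf1, which together with other interferon regulatory factors binds interferon-stimulated response elements (ISRE). The targets include GTPases that attack the vacuoles of intracellular microbes, and the machinery by which any nucleated cell cuts its own proteins, moves the peptides into the endoplasmic reticulum and displays them on class I molecules to CD8 T cells. Type I interferons induce many of the same genes through a receptor of their own.

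The promoters carry the letters of both elements, and the stretches that hold them are given for members on which the results turn. For 24 of the 31 members a promoter window from the RefSeq table (build GRCm38.p6) was used here, and Iigp1 was not among them. For the members, but not for all windows, a chromosome was left out. A member without a window here, such as Iigp1, may therefore still have one in that table. A member was counted if any of its windows held the letters. In the 250 bases before the transcription start, the ISRE letters GAAANNGAAA, or TTTCNNTTTC on the other strand, were found in 13 of the 24 members against 2.98% of 32851 windows. The GAS letters TTCNNNGAA, which read the same on both strands, were found in 8 of the 24 members against 7.02% of windows, and either element was found in 15 of the 24 against 9.66%. Overlapping matches were counted, and a match of letters is not evidence of binding. Capitals mark the matched letters in these stretches, each written 5′ to 3′ along the strand of its gene.
Igtp, chr11:58199496-58199546, plus strand: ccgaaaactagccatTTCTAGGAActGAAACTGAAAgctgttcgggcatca
Irgm2, chr11:58214887-58214937, plus strand: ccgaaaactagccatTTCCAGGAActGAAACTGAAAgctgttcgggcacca
Tgtp1, chr11:48992299-48992349, minus strand: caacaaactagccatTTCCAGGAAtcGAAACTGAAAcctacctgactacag
Tgtp2, chr11:49064258-49064308, minus strand: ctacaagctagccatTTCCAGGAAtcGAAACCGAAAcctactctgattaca
Irf1, chr11:53769909-53769947, plus strand: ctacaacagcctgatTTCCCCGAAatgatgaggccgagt
Psmb8, chr17:34198083-34198121, plus strand: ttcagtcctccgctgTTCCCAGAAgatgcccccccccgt
Gbp2, chr3:142620589-142620628, plus strand: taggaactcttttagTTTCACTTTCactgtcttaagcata
Irgm1, chr11:48871421-48871465, minus strand: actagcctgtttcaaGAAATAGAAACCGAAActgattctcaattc
Socs1, chr16:10785589-10785634, minus strand: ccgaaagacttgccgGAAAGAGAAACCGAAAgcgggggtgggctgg
B2m, chr2:122147533-122147572, plus strand: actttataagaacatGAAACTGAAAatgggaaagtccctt
In the 4 immunity-related GTPases Igtp, Irgm2, Tgtp1 and Tgtp2 a GAS starts 11 bases before an ISRE. Irf1 and Psmb8 hold a GAS without an ISRE in this window, whereas Gbp2, Irgm1, Socs1 and B2m hold an ISRE without a GAS.

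After filtering, 829 to 5894 cells per pool were kept. CD8 T cells numbered 470 in WT-1 to 4151 in PS-5X, CD4 T cells 143 to 975 and γδ T cells 41 to 286, and 8.18% to 21.1% of cells stayed without a class. The named γδ class was marked by Il17a, Cd163l1 and Tcrg-V6, so it describes interleukin-17 type γδ T cells and not all γδ T cells. The sums over a class held 3821441 to 26478271 UMIs (unique molecules counted) for CD8, 986583 to 5048129 for CD4 and 301144 to 1639743 for γδ T cells. WT-1 shared 58 full receptor pairs with 5XFAD-1 and 42 with PS19, while pools of separate runs shared none. In WT-1, 141 of the 385 CD8 cells with both chains carried a shared receptor, as did 77 of its 93 expanded CD8 cells, while in 5XFAD-1 it was 424 of 1331 CD8 cells and 406 of the 659 expanded ones, and in PS19 149 of 1173 and 129 of 355. PS-5X shared 6 receptor pairs with PS19 and 2 with WT-1. In PS-5X it was 173 of 3188 CD8 cells and 172 of the 1864 expanded ones. The values of these pools may therefore hold cells of one another. Few barcodes were shared between pools (1 to 23 per pair). The labels describe the pools as separate groups of mice.

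The 3 T cell classes carried different amounts of these transcripts, and γδ T cells carried the least. Levels are given in counts normalised to library size (CPM, TMM-scaled), and are compared between classes and samples, never between genes. The levels per cluster and the summed markers of cell types are CPM without TMM scaling. Of the 31 members, 24 had their highest mean in CD8, the next in CD4 and the lowest in γδ T cells. Against CD8 T cells in the same pools, 26 members were lower and 2 higher in γδ T cells by edgeR's quasi-likelihood test with Benjamini-Hochberg adjustment over all genes tested (threshold 0.05). In this comparison 25.9% of all 10541 genes tested were called lower and 26.1% higher. The median log2 difference was -0.75 over the members and -0.03 over all genes. Against CD4 T cells, γδ T cells were lower for 23 members and higher for 3, where 23.3% of genes were called lower and 25.5% higher, with medians of -0.63 and -0.00. CD4 T cells stood closer to CD8 T cells: 17 members were lower and 2 higher, at a background of 16.7% lower and 15.9% higher, with medians of -0.19 and -0.02. Without WT-1 the 3 comparisons gave 28, 27 and 17 calls in place of 28, 26 and 19. Clusters were named as wholes, so the interferon-marked cluster described below counts wholly as CD8. CD4 and γδ T cells hold 0 of its cells. The 3 comparisons were not refitted without it, and its part in the class differences was not tested.

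**Figure D1:**
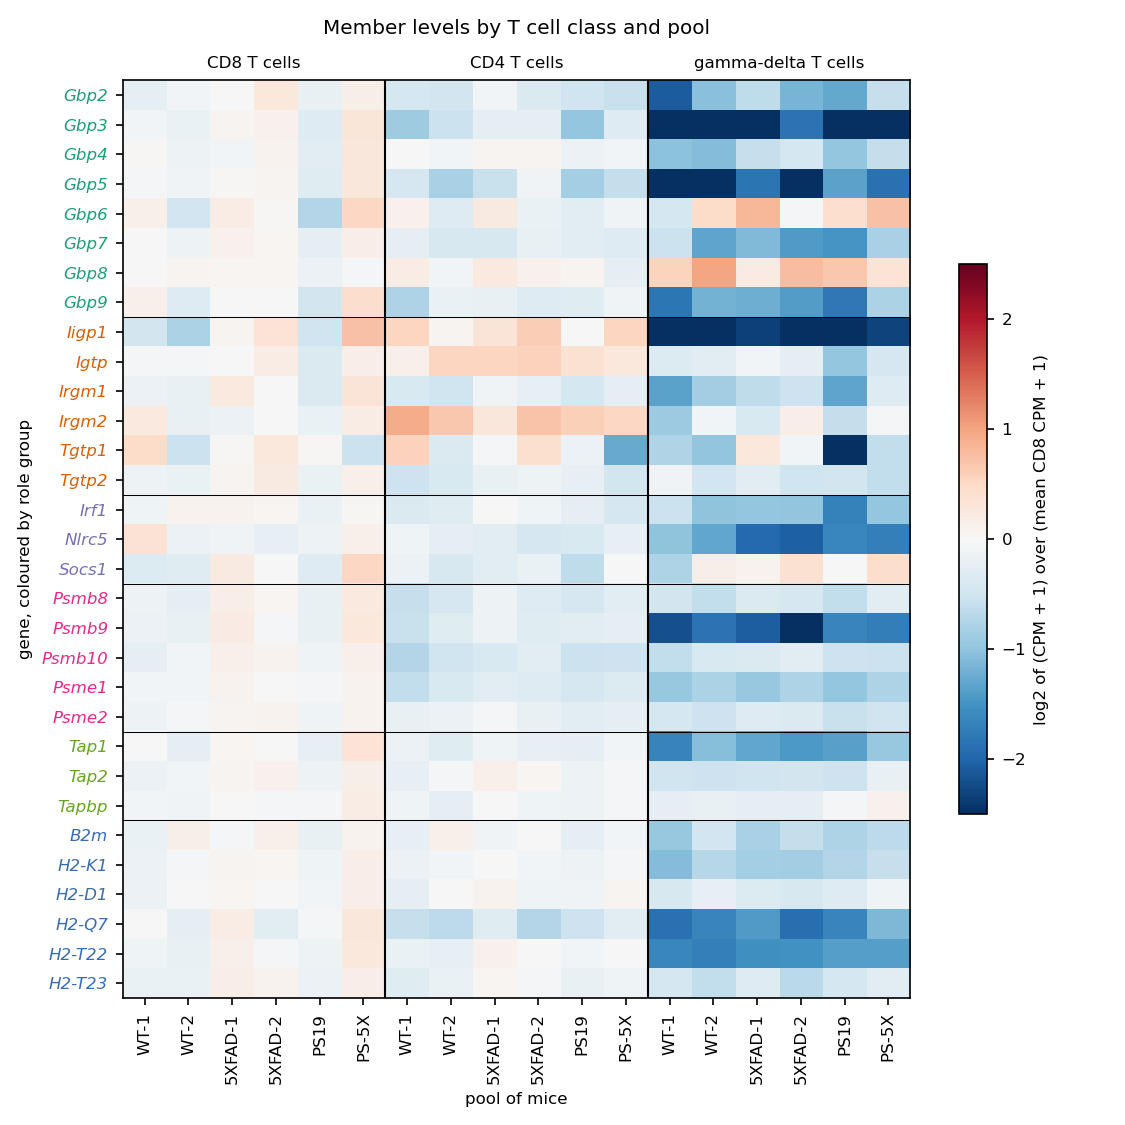
Level of each member (rows, by role) in each pool (columns, by T cell class), as the log2 ratio of its CPM to its mean CPM in CD8 T cells, with 1 CPM added to both. Colours saturate at 2.5 in either direction. The γδ columns are blue for most members, and the darkest rows are Iigp1 and Gbp3, the latter with 0.829 to 8.85 CPM in γδ against 27.5 to 42.7 CPM in CD8 T cells.

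Among the regulators, Nlrc5, the transactivator of class I genes, measured 84.6 to 126 CPM (median 90.4) across the CD8 sums of the 6 pools. It measured 72.6 to 90.2 CPM (median 81.9) in CD4 and 23.0 to 48.3 CPM (median 30.0) in γδ T cells. Every γδ value lay below every CD8 and every CD4 value, at a log2 difference of -1.67 ± 0.10 (SE), adjusted p = 3.48e-13, from CD8 T cells. Irf1, a transcription factor induced by interferon gamma, measured 175 ± 12.2 CPM (SD, n = 6) in CD8, 149 ± 16.3 CPM (SD, n = 6) in CD4 and 87.9 ± 21.2 CPM (SD, n = 6) in γδ T cells. γδ T cells were lower for Irf1 in 6 of 6 pools, at a log2 difference from CD8 T cells of -1.05 ± 0.09 (SE), adjusted p = 2.85e-10. Socs1, the feedback inhibitor of Jak kinases, went another way: it measured 135 ± 35.2 CPM (SD, n = 6) in CD8, 113 ± 17.2 CPM (SD, n = 6) in CD4 and 144 ± 37.4 CPM (SD, n = 6) in γδ T cells. The γδ level did not pass the test against CD8 (0.12 ± 0.09 (SE), adjusted p = 0.296) and was higher than the CD4 level (0.40 ± 0.10 (SE), adjusted p = 0.00178), a call that was lost when classes were set from the UMIs of each cell.

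The guanylate-binding proteins, GTPases that assemble on pathogen vacuoles, divided into 6 that were lower in γδ T cells and 2 that were higher, against both other classes. Gbp3 gave the widest gap of the group: it measured 27.5 to 42.7 CPM (median 34.5) in CD8, 17.1 to 29.4 CPM (median 25.6) in CD4 and 0.829 to 8.85 CPM (median 2.67) in γδ T cells. The γδ values rest on 24 UMIs over all 6 pools, and the log2 difference from CD8 T cells was -3.26 ± 0.21 (SE), adjusted p = 3.17e-12. Gbp5, which also promotes inflammasome assembly, was again lower in 6 of 6 pools (log2 difference -2.29 ± 0.20 (SE), adjusted p = 4.82e-10), on 44 γδ UMIs. Gbp2, Gbp4, Gbp7 and Gbp9 were lower in γδ than in CD8 T cells, with log2 differences of -0.98, -0.75, -1.15 and -1.26. Gbp8 measured 72.6 to 126 CPM (median 97.5) in γδ and 56.7 to 65.9 CPM (median 64.0) in CD8 T cells, with every γδ value above every CD8 value (0.59 ± 0.10 (SE), adjusted p = 1.37e-05). Gbp6 was higher in γδ than in CD8 T cells in 4 of 6 pools (0.46 ± 0.13 (SE), adjusted p = 0.00589), and this call, like that against CD4, was lost when classes were set from the UMIs of each cell. Gbp4, Gbp6, Gbp8 and Gbp9 belong to a set of closely similar genes whose reads the counting may have divided unevenly, so their separate values are uncertain. Between CD4 and CD8 T cells, 5 of the 8 were lower in CD4, among them Gbp5 (-0.62 ± 0.11 (SE), adjusted p = 5.01e-05), Gbp3 (-0.52) and Gbp2 (-0.44), and Gbp4, Gbp6 and Gbp8 did not pass the test.

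The immunity-related GTPases were the one role group with members called higher in CD4 than in CD8 T cells. Irgm2, a regulator of the effector GTPases, measured 45.6, 38.4 and 36.2 in WT-1, WT-2 and PS19, and 28.9, 39.4 and 34.2 in 5XFAD-1, 5XFAD-2 and PS-5X in CD4 T cells, in CPM. In CD8 T cells it measured 28.3, 20.7 and 20.9 in WT-1, WT-2 and PS19, and 21.1, 23.4 and 27.1 in 5XFAD-1, 5XFAD-2 and PS-5X. All 6 CD4 values exceeded all 6 CD8 values, and the log2 difference was 0.62 ± 0.09 (SE), adjusted p = 5e-06. Igtp, also named Irgm3 and of the same regulatory class, was higher in CD4 T cells in 6 of 6 pools (0.41 ± 0.07 (SE), adjusted p = 6.53e-05), while Irgm1 (-0.33) and Tgtp2 (-0.32) were lower. Iigp1, an effector GTPase, measured 8.64 to 26.8 CPM (median 13.8) in CD8 and 15.6 to 24.7 CPM (median 21.6) in CD4 T cells, and the difference did not pass the test (0.34 ± 0.13 (SE), adjusted p = 0.0578). Without the interferon-marked cluster, Iigp1 measured 6.10 to 11.1 CPM in CD8 T cells, below every CD4 value. Irgm1 then measured 32.6 to 41.7 CPM in CD8, against 33.4 to 44.8 CPM in CD4 T cells. These CD8 values too were scaled apart and not tested. In γδ T cells Iigp1 gave 10 UMIs in all, with none in WT-1 and WT-2 and 1.54 to 2.34 CPM in the other 4 pools, and the fitted log2 difference from CD8 was -3.43 ± 0.35 (SE), adjusted p = 1.07e-08. Igtp, Irgm1 and Tgtp2 were also lower in γδ than in CD8 T cells, and Irgm2 and Tgtp1 did not pass the test. Tgtp1 and Tgtp2 are near-identical, and their separate values are uncertain.

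All 5 genes of the immunoproteasome and PA28 were lower in CD4 than in CD8 T cells, and all 5 were lower in γδ than in CD8 T cells. Psmb9, a catalytic subunit of the immunoproteasome, measured 222 to 303 CPM (median 238) in CD8, 171 to 232 CPM (median 206) in CD4 and 44.2 to 79.9 CPM (median 64.5) in γδ T cells. The γδ values lay apart from both other classes, at a log2 difference of -2.02 ± 0.09 (SE), adjusted p = 5.84e-15, from CD8. Psmb8 and Psmb10, the other catalytic subunits, were lower in γδ than in CD8 T cells (log2 differences -0.47 and -0.48), and neither differed from CD4 beyond the threshold (adjusted p = 0.0689 and 0.767). Psmb10 was lower in CD4 than in CD8 T cells in 6 of 6 pools (-0.50 ± 0.05 (SE), adjusted p = 2.31e-08). Psme1 and Psme2, the subunits of the PA28 cap that opens the proteasome, had log2 differences from CD8 T cells of -0.40 and -0.19 in CD4 and of -0.88 and -0.47 in γδ T cells. The CD4 call of Psmb9 was lost when classes were set from the UMIs of each cell, as were those of Gbp7, Gbp9, Irgm1 and Tap1, and 12 of the 19 calls between CD4 and CD8 T cells held under all alternatives run. The constitutive counterparts, a list of 4 genes that holds Psmb5, gave 0 calls between γδ and CD8 T cells and 1 lower call in CD4, Psmb5 at -0.13.

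Among the peptide-loading genes, Tap1, a subunit of the peptide transporter, measured 194 ± 29.6 CPM (SD, n = 6) in CD8, 172 ± 10.7 CPM (SD, n = 6) in CD4 and 79.6 ± 14.8 CPM (SD, n = 6) in γδ T cells. γδ T cells were lower in 6 of 6 pools (-1.25 ± 0.08 (SE), adjusted p = 2.26e-12). Tap2, its partner subunit (log2 difference -0.46), and Tapbp, the tapasin that bridges transporter and class I molecule (-0.14, adjusted p = 0.0236), were lower too. The call of Tapbp was lost without WT-2, 5XFAD-1 or 5XFAD-2. The general chaperones of the loading complex ran the other way: Canx, Calr and Pdia3, which serve glycoproteins at large, were higher in γδ than in CD8 T cells by 1.13, 0.97 and 1.21 on the log2 scale, and the trimming peptidase Erap1 was lower (-0.27).

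The class I chains were lower in γδ T cells for 6 of 6 members against both other classes. B2m, the shared light chain, measured 1077, 1489 and 1218 in WT-1, WT-2 and PS19, and 1174, 1367 and 1323 in 5XFAD-1, 5XFAD-2 and PS-5X in γδ T cells, in CPM. In CD8 T cells it measured 1841, 2310 and 1826 in WT-1, WT-2 and PS19, and 1996, 2269 and 2205 in 5XFAD-1, 5XFAD-2 and PS-5X. The groups did not overlap, and the log2 difference of γδ from CD8 T cells was -0.72 ± 0.04 (SE), adjusted p = 1.25e-13. The classical heavy chains H2-K1 (-0.81 ± 0.05 (SE), adjusted p = 4.67e-13) and H2-D1 (-0.31 ± 0.04 (SE), adjusted p = 4.08e-07) and the nonclassical H2-T22 (-1.55 ± 0.06 (SE), adjusted p = 2.44e-16), H2-T23 (-0.49) and H2-Q7 were lower as well. H2-Q7 measured 747 to 1102 CPM (median 897) in CD8, 551 to 747 CPM (median 621) in CD4 and 244 to 417 CPM (median 291) in γδ T cells, with the lowest CD8 and the highest CD4 value both at 747 CPM. It was the single class I chain called between CD4 and CD8 T cells (-0.51 ± 0.05 (SE), adjusted p = 1.16e-08), while B2m (-0.08), H2-K1 (-0.08) and H2-D1 (-0.06) did not pass the test. When naive-marked clusters were left out, H2-K1, H2-T22 and H2-T23 were called lower in CD4 as well, and the calls of Irf1 and Socs1 were lost. The heavy chains share long stretches of sequence, so reads may be divided between them and other H2 genes.

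**Figure D2:**
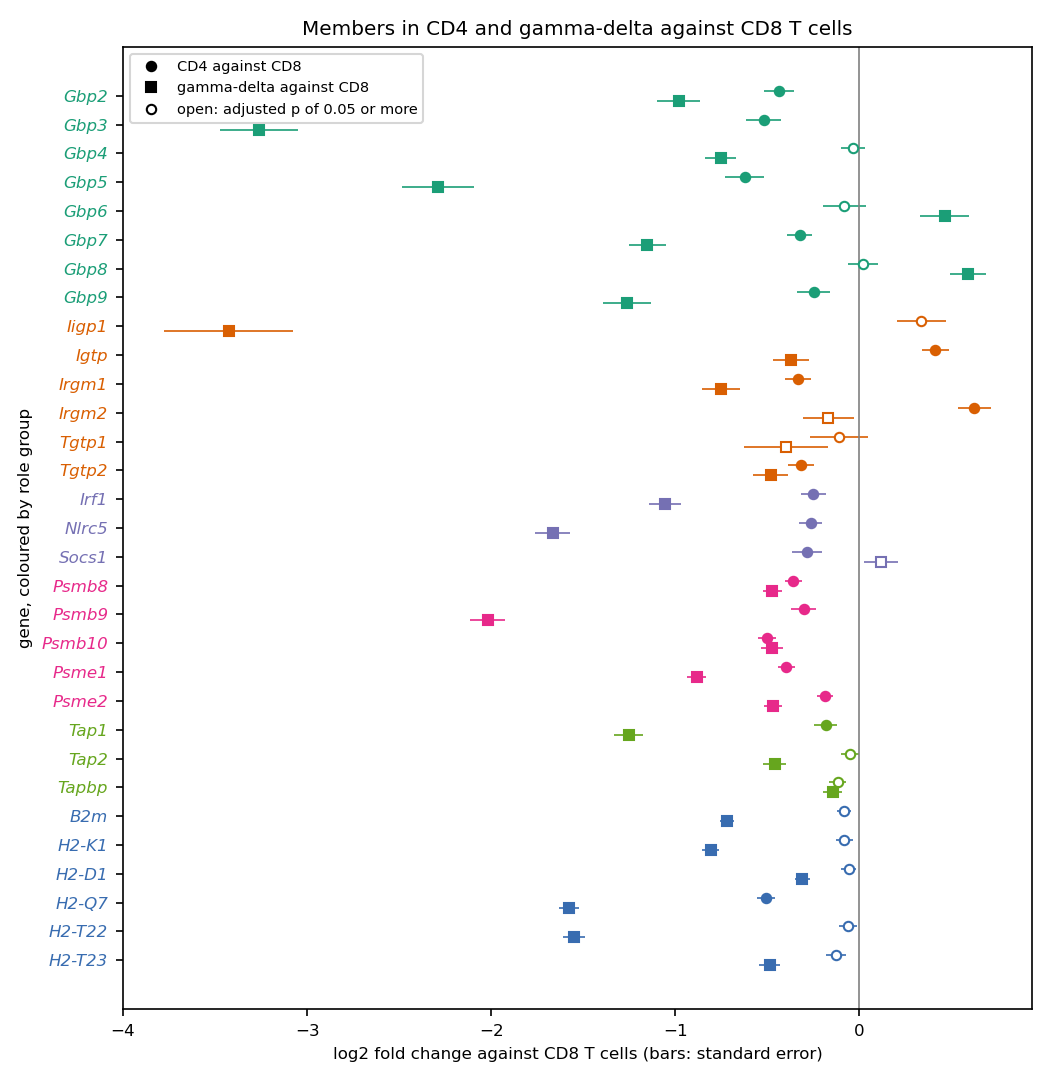
Log2 difference of each member from CD8 T cells in CD4 (circles) and γδ (squares) T cells, with its standard error, over 6 pools. Open symbols did not pass the test. Gbp3 at -3.26 and Iigp1 at -3.43 lie farthest below 0 for γδ T cells, and Irgm2 at 0.62 lies highest for CD4 T cells.

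Other genes of the pathway, held in lists by role, showed the ligand and the sensing machinery beside these targets. Ifng itself measured 211 ± 61.8 CPM (SD, n = 6) in CD8, 195 ± 57.2 in CD4 and 12.8 ± 8.06 in γδ T cells, and was lower in γδ than in CD8 T cells at a log2 difference of -4.13 ± 0.23 (SE), adjusted p = 1.48e-13. Both receptor chains were higher in γδ T cells, Ifngr1 by 0.70 and Ifngr2 by 2.76. The kinases Jak1 (-0.62 ± 0.05 (SE), adjusted p = 2.65e-11) and Jak2 (-0.42) and the transcription factor Irf9 (-0.92) were lower. Of the 14 ligand, receptor and signalling genes 13 were tested, and 9 were lower and 3 higher in γδ than in CD8 T cells. Of 21 genes of the type I interferon response 20 were tested, with 19 lower and 0 higher in γδ than in CD8 T cells and 18 lower and 1 higher in CD4 than in CD8 T cells. Among the 10 other interferon gamma targets 6 were tested, of which 5 were lower in γδ and 5 lower in CD4 than in CD8 T cells, and Cd274, the ligand of PD-1, was higher in CD4 (0.43). All 4 tested of the 5 other class I genes were lower in γδ than in CD8 T cells. Over all genes tested, 25.9% were called lower and 26.1% higher in γδ, and 16.7% lower and 15.9% higher in CD4 than in CD8 T cells. Clusters were built on genes that interferons induce, and the interferon-marked cluster described below counts wholly as CD8. Its part in the counts of these lists was not tested. Microglial markers were near 0 in these sums: C1qa, P2ry12 and Tmem119 stayed below 1 CPM in every CD8 sum. The summed class II antigen-presenting markers ranged from 3.19 to 17.4 CPM in CD8, 12.2 to 46.4 CPM in CD4 and 28.5 to 225 CPM in γδ T cells, and their part in the class differences was not tested.

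Within CD8 T cells, the highest levels of most members lay in 1 cluster of 748 cells, marked by Cxcl10, Ifit3, Ifit1 and Rsad2. Clusters were built without the members, but on genes that the same interferons induce, so the following values describe the cluster and are not tested. Of the 31 members 30 were highest in this cluster among the 9 CD8 clusters, and H2-D1 was highest in another. PS-5X supplied 475 of the 748 cells, so values over the whole cluster mostly describe that pool. The GTPases stood farthest above the median of the 8 other clusters: Iigp1 measured 140.1 against 6.62 CPM, 21.2 times as much, and Gbp6 measured 513 against 58.2 CPM, 8.83 times as much. The guanylate-binding proteins ranged from 2.36 to 8.83 times the median of the other clusters and the immunity-related GTPases from 3.61 to 21.2 times. The immunoproteasome and PA28 genes ranged from 1.65 to 2.38 times, the regulators from 1.65 to 2.52, the loading genes from 1.39 to 2.17 and the class I chains from 1.12 to 2.30. Thus B2m, at 2580 CPM in the cluster against 2104 CPM in the median of the others, differed little by this measure where Iigp1 differed much.

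**Figure D3:**
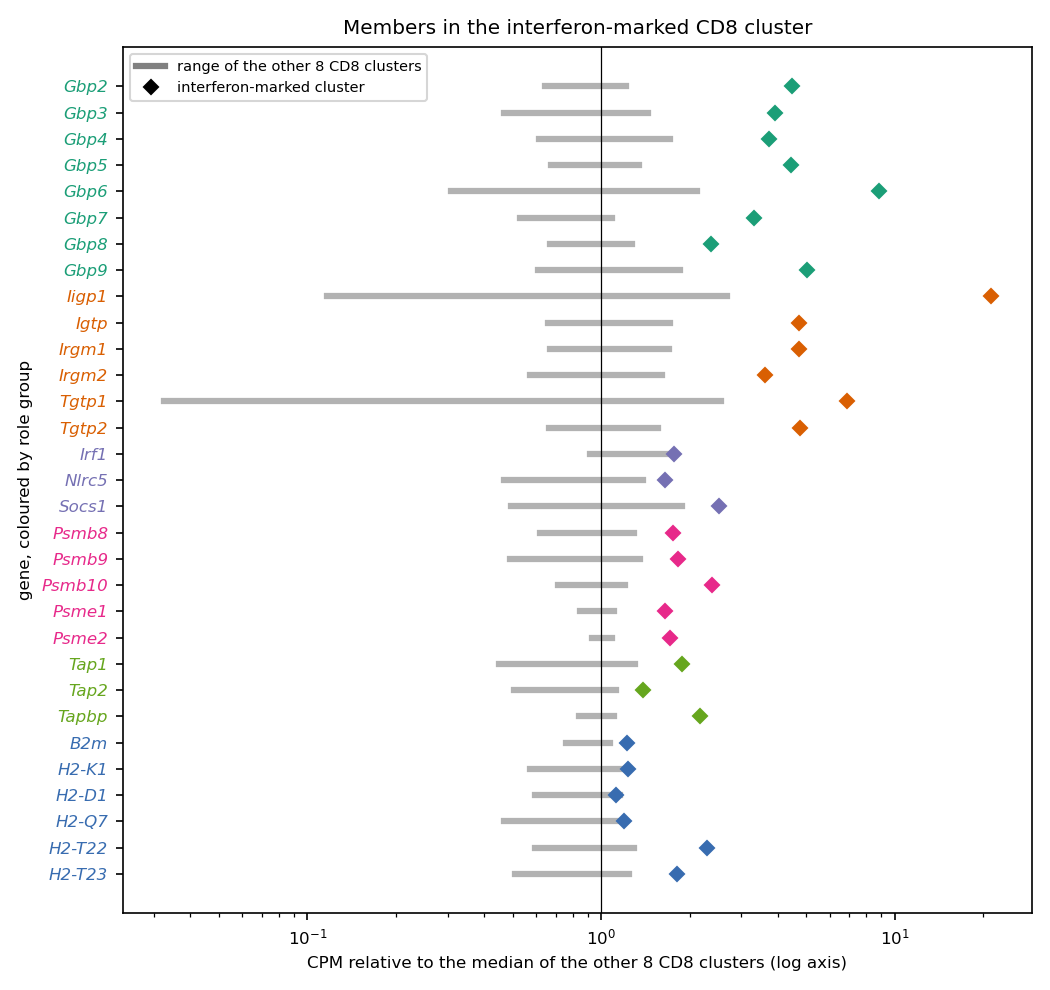
Level of each member in the interferon-marked CD8 cluster (diamonds, 748 cells) and its range over the 8 other CD8 clusters (grey bars), both divided by the median of those 8, on a log axis. The GTPases reach 21.2 for Iigp1, and the class I chains lie between 1.12 and 2.30.

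The cluster held 4.47%, 1.54% and 1.95% of the CD8 cells of WT-1, WT-2 and PS19, and 7.47%, 4.77% and 11.4% of those of 5XFAD-1, 5XFAD-2 and PS-5X. The 3 pools with amyloid held the 3 largest shares, and 5XFAD-2 lay close to WT-1. These cells gave 1.5% to 11.9% of all CD8 UMIs in a pool, but 25.7% to 67.7% of the Iigp1 UMIs and 17.7% to 49.8% of the Gbp6 UMIs. For H2-K1 they gave 2.18% to 15.6%, near their share of all UMIs. The median share over pools was 4.73% for all UMIs and, taking the median member of each role, 20.4% for the immunity-related GTPases, 19.5% for the guanylate-binding proteins, 8.30% for the immunoproteasome and PA28 genes and 6.40% for the class I chains. Over the pools the median was 45.3% for Iigp1 and 41.9% for Gbp6, so the other CD8 cells gave a large share as well.

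Levels were next compared between clone sizes. A clone is here the set of cells of a pool with the same receptor, an expanded cell belongs to a clone of at least 2 cells, and a large clone has at least 5. Over all CD8 T cells, 16 members were higher and 6 lower in expanded than in singleton cells, where 16.6% of 10793 genes were called higher and 15.1% lower, with a median log2 difference of 0.18 against 0.00 over all genes. Cell state moved with clone size: naive-marked clusters held 30.5% to 60.3% of singletons and 0.607% to 3.66% of expanded cells. The members higher in expanded cells included H2-Q7 (0.43 ± 0.05 (SE), adjusted p = 2.69e-07), Nlrc5 (0.43), Socs1 (0.43), Psmb9 (0.42) and Tap1 (0.42), each in 6 of 6 pools. Those lower were Tgtp1 (-0.80 ± 0.15 (SE), adjusted p = 0.000349), Igtp (-0.24), Gbp2 (-0.17), Irf1 (-0.16), Psme1 (-0.13) and Psme2 (-0.12). Gbp3 (0.27), Gbp6 (0.24), Gbp7 (0.30), Gbp8 (0.18) and Irgm1 (0.26) were among the higher members, so the GTPases moved in both directions. Without WT-1 there were 20 calls in place of 22. The calls of Psme1 and Psme2 were both lost with DESeq2, without shared receptors and without WT-1, WT-2, 5XFAD-2 or PS19, that of Gbp2 with DESeq2 or without 5XFAD-2, and that of Irf1 without 5XFAD-2.

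Without the naive-marked clusters 10 members passed, 5 higher and 5 lower in expanded cells, where 3.51% of 10242 genes were called higher and 3.59% lower. The median log2 difference of the members was -0.03, and 0.00 over all genes. The 5 higher members all serve class I presentation. Tap1 measured 218, 173 and 198 in WT-1, WT-2 and PS19, and 209.7, 212 and 257 in 5XFAD-1, 5XFAD-2 and PS-5X in non-naive singletons, in CPM. In expanded cells it measured 228, 199.7 and 219 in WT-1, WT-2 and PS19, and 238, 252 and 287 in 5XFAD-1, 5XFAD-2 and PS-5X, higher in 6 of 6 pools (0.17 ± 0.04 (SE), adjusted p = 0.00419). The gain within a pool was small beside the differences between pools. H2-K1 measured 3639, 3935 and 3880 in WT-1, WT-2 and PS19, and 4003, 4126 and 4223 in 5XFAD-1, 5XFAD-2 and PS-5X in singletons. In expanded cells it measured 4153, 4077 and 4082 in WT-1, WT-2 and PS19, and 4249, 4510 and 4540 in 5XFAD-1, 5XFAD-2 and PS-5X, again higher in 6 of 6 pools (0.10 ± 0.03 (SE), adjusted p = 0.0203). H2-D1 (0.10 ± 0.03 (SE), adjusted p = 0.0184), H2-Q7 (0.14 ± 0.03 (SE), adjusted p = 0.00795) and Psmb9 (0.13 ± 0.04 (SE), adjusted p = 0.0428) were the others, and Psmb9 was lower in the expanded cells of PS19.

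The 5 lower members were GTPases and Irf1. Gbp2 measured 74.3, 83.8 and 91.6 in WT-1, WT-2 and PS19, and 89.4, 129 and 109 in 5XFAD-1, 5XFAD-2 and PS-5X in non-naive singletons, in CPM. In expanded cells it measured 67.0, 73.2 and 68.2 in WT-1, WT-2 and PS19, and 76.5, 84.8 and 83.1 in 5XFAD-1, 5XFAD-2 and PS-5X, lower in 6 of 6 pools (-0.36 ± 0.06 (SE), adjusted p = 6.28e-05). The drop was deepest in 5XFAD-2. Irf1 measured 185, 195 and 176 in WT-1, WT-2 and PS19, and 196, 201 and 205 in 5XFAD-1, 5XFAD-2 and PS-5X in singletons. In expanded cells it measured 132, 180.0 and 147 in WT-1, WT-2 and PS19, and 187, 158 and 169.8 in 5XFAD-1, 5XFAD-2 and PS-5X, lower in 6 of 6 pools (-0.23 ± 0.05 (SE), adjusted p = 0.00118). Igtp (-0.20 ± 0.05 (SE), adjusted p = 0.0165) and Tgtp1 (-0.71 ± 0.16 (SE), adjusted p = 0.00416) were lower in all 6 pools and Gbp6 (-0.20 ± 0.06 (SE), adjusted p = 0.0206) in 5. The cells of the interferon-marked cluster made up 2.89% to 16.8% of non-naive singletons and 2.30% to 13.8% of expanded cells, and when they were left out Gbp2, Gbp6 and Igtp no longer passed while Irf1 and Tgtp1 did.

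The 5 higher calls were lost without the largest clones. When the largest clone of each pool was left out (20 to 348 CD8 cells), 0 members were higher and 4 lower, and the same counts were found without cells whose receptors are shared between pools. Under both settings none of the 5 higher members passed, and Gbp2, Gbp6 and Irf1 still passed. The share of all genes called under these settings is not given here, so the losses cannot be set against other genes. Leaving out single pools gave 4 to 10 calls, with 4 without PS-5X, 5 without 5XFAD-2 and 8 without WT-1, and DESeq2 gave 6.

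**Figure D4:**
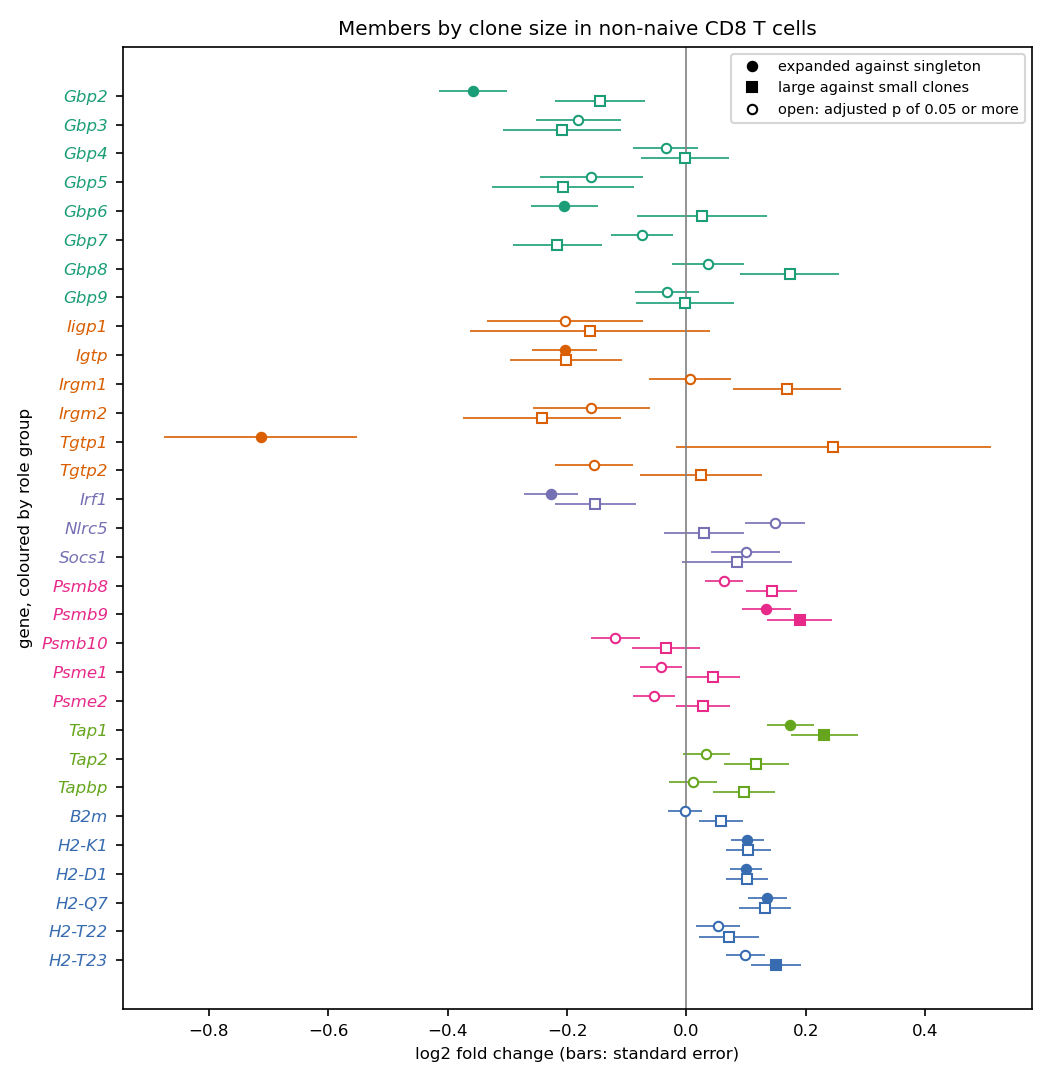
Log2 difference of each member with clone size in non-naive CD8 T cells, for expanded against singleton cells (circles) and large against small clones (squares), with its standard error. Open symbols did not pass the test. Among expanded against singleton cells, the filled GTPases and Irf1 lie to the left, down to -0.71 for Tgtp1, and the filled presentation genes slightly to the right, up to 0.17 for Tap1.

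Large clones were compared with small expanded clones to see whether the levels moved further with size. Of the 31 members 3 were higher and 0 lower in large clones, at a background of 1.67% of 9689 genes in either direction. These were Tap1 (0.23 ± 0.06 (SE), adjusted p = 0.0142), Psmb9 (0.19 ± 0.05 (SE), adjusted p = 0.0432) and H2-T23 (0.15 ± 0.04 (SE), adjusted p = 0.0396). Tap1 measured 244, 180.5 and 194 in WT-1, WT-2 and PS19, and 205, 240.0 and 251 in 5XFAD-1, 5XFAD-2 and PS-5X in small clones, in CPM. In large clones it measured 193, 212 and 248 in WT-1, WT-2 and PS19, and 254, 258 and 303 in 5XFAD-1, 5XFAD-2 and PS-5X. It was higher in 5 of 6 pools, and WT-1, with 32 cells in large clones, was the exception. Psmb9 and H2-T23 were higher in 6 of 6 pools. No member passed without 5XFAD-1, PS19 or PS-5X, and 1 member, Tap1, passed without 5XFAD-2, without the largest clones, without shared receptors or without the interferon-marked cluster. The shares of all genes called in these refits are not given here, so the losses cannot be set against other genes.

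Between small clones and singletons edgeR called 0 members in either direction, at a background of 0% higher and 0.0206% lower, and 5 members had an unadjusted p under 0.05. Against singletons, large clones were higher for 7 members and lower for 5, where 4.59% of genes were called higher and 4.67% lower. The higher members were Tap1 (0.26), Psmb9 (0.21), H2-Q7 (0.19), H2-T23 (0.16), H2-K1 (0.14), H2-D1 (0.14) and Psmb8 (0.13). The lower members were Tgtp1 (-0.62), Gbp2 (-0.41), Igtp (-0.28), Irf1 (-0.28) and Gbp3 (-0.25). All 7 higher members serve class I presentation, and the 5 lower ones are GTPases and Irf1.

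In the lists of other pathway genes, Ifng was higher in expanded non-naive CD8 T cells (0.33 ± 0.05 (SE), adjusted p = 8.32e-05) and higher again in large against small clones (0.63 ± 0.10 (SE), adjusted p = 0.000274). Of the 13 tested ligand, receptor and signalling genes 1 was higher and 4 lower in expanded cells, the latter including the receptor chains Ifngr1 (-0.13) and Ifngr2 (-0.84) and the inhibitor Socs3 (-0.42). H2-Q4 and H2-Q6 were higher by 0.13 and 0.12. Of the 20 tested type I interferon response genes 6 were lower, among them Oasl2 (-0.53), and 1 was higher, Ifi27l2a (0.26).

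In CD4 T cells the comparison used 5 pools, because WT-1 had 5 expanded CD4 cells. Members were higher in expanded cells for 7 genes and lower for 2, where 6.02% of 8899 genes were called higher and 5.63% lower, with a median log2 difference of 0.14 against 0.01. Socs1 measured 84.6 and 78.3 in WT-2 and PS19, and 108, 124 and 133 in 5XFAD-1, 5XFAD-2 and PS-5X in singletons, in CPM. In expanded cells it measured 193 and 203 in WT-2 and PS19, and 147, 158 and 165 in 5XFAD-1, 5XFAD-2 and PS-5X, above every singleton value (0.72 ± 0.14 (SE), adjusted p = 0.000393). H2-Q7 measured 542 and 622 in WT-2 and PS19, and 761, 537 and 719 in 5XFAD-1, 5XFAD-2 and PS-5X in singletons. In expanded cells it measured 811 and 943 in WT-2 and PS19, and 846, 851 and 991 in 5XFAD-1, 5XFAD-2 and PS-5X, also without overlap (0.48 ± 0.09 (SE), adjusted p = 0.000394). Psmb8 (0.35 ± 0.09 (SE), adjusted p = 0.0066), Tap1 (0.33), H2-K1 (0.25) and H2-D1 (0.24) were higher in 5 of 5 pools and Gbp6 (0.47) in 4.

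Irgm2 measured 39.0 and 40.4 in WT-2 and PS19, and 30.7, 39.6 and 38.2 in 5XFAD-1, 5XFAD-2 and PS-5X in CD4 singletons, in CPM. In expanded CD4 cells it measured 31.4 and 3.68 in WT-2 and PS19, and 25.6, 22.5 and 21.1 in 5XFAD-1, 5XFAD-2 and PS-5X, lower in 5 of 5 pools (-0.81 ± 0.26 (SE), adjusted p = 0.0344). Iigp1 was lower in 5 of 5 pools as well, with no UMI in the expanded cells of WT-2 and PS19 (fitted log2 difference -1.30 ± 0.40 (SE), adjusted p = 0.0293). When naive-marked clusters were left out, 1 member passed in place of 9, H2-Q7. That fit held fewer cells, with 309 of the 621 CD4 singletons in WT-2 and 194 of the 459 in PS19. Leaving out single pools gave 3 to 7 calls, with 3 without PS19, and 5 passed without shared receptors or with DESeq2. The shares of all genes called in these refits are not given here, so the losses cannot be set against other genes. Ifng was higher in expanded CD4 cells (1.38 ± 0.17 (SE), adjusted p = 3.05e-07), and Ifngr2 was lower (-2.82).

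The pools with amyloid were compared with those without, with tau as a second factor in the same model, and no member passed in any cell class. In CD8 T cells 0 of 31 members were called and 0% of all 11565 genes were called in either direction. The log2 difference with amyloid was above 0 for 29 of the 31 members, with a median of 0.25 against -0.01 over all genes. The lists of related genes lay farther from 0, with medians of 0.90 over 20 tested genes of the type I interferon response and 0.81 over 7 other interferon gamma targets, none of them called. The summed markers of interferon-marked cells did not overlap between groups, at 372 to 756 CPM with amyloid and 165 to 337 CPM without in CD8 T cells, and at 151 to 205 and 115 to 124 CPM in CD4 T cells. At an unadjusted p under 0.05 there were 19 members and 1261 of all genes. For 19 members all 3 pools with amyloid lay above all 3 without, and for 0 members below, where 7.53% of all genes lay above and 6.84% below. In the 3 pairs whose genotypes differ by amyloid alone (5XFAD-1 with WT-1, 5XFAD-2 with WT-2, PS-5X with PS19), 21 of the 31 members were higher in every pair, against 17.5% of all genes. The WT and 5XFAD pools of a pair also differ in number of mice. Receptors were shared between 5XFAD-1 and WT-1 and between PS-5X and PS19.

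By role, the median log2 difference with amyloid was 0.30 for the guanylate-binding proteins, 0.29 for the immunity-related GTPases, 0.25 for the immunoproteasome and PA28 genes, 0.22 for the loading genes and 0.17 for the class I chains. Iigp1 measured 11.2, 8.64 and 10.9 in WT-1, WT-2 and PS19, and 16.4, 20.2 and 26.8 in 5XFAD-1, 5XFAD-2 and PS-5X in CD8 T cells, in CPM. All 3 pools with amyloid exceeded all 3 without, with means of 21.1 ± 5.25 and 10.3 ± 1.41 CPM (SD, n = 3 each) and a log2 difference of 1.08 ± 0.15 (SE), adjusted p = 0.101. Socs1 measured 106, 109.9 and 108 in WT-1, WT-2 and PS19, and 159, 134 and 194 in 5XFAD-1, 5XFAD-2 and PS-5X. It did not overlap either (0.57 ± 0.11 (SE), adjusted p = 0.109), and its values without amyloid lay close together. Psmb8 measured 705, 661 and 673 in WT-1, WT-2 and PS19, and 857, 799 and 913 in 5XFAD-1, 5XFAD-2 and PS-5X, without overlap (0.33 ± 0.08 (SE), adjusted p = 0.193). These members come from different roles, an effector GTPase, an inhibitor and a proteasome subunit. H2-T23, the ligand of NKG2A receptors, measured 579.7, 579 and 585 in WT-1, WT-2 and PS19, and 725, 689 and 722 in 5XFAD-1, 5XFAD-2 and PS-5X, also without overlap (0.29 ± 0.07 (SE), adjusted p = 0.219). Gbp6 measured 89.8, 58.1 and 49.0 in WT-1, WT-2 and PS19, and 92.5, 83.2 and 118 in 5XFAD-1, 5XFAD-2 and PS-5X, and here WT-1 lay above 5XFAD-2, so the groups overlapped (0.63 ± 0.20 (SE), adjusted p = 0.325). Irf1 (0.10) and Nlrc5 (-0.08), the regulators upstream, overlapped between groups.

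**Figure D5:**
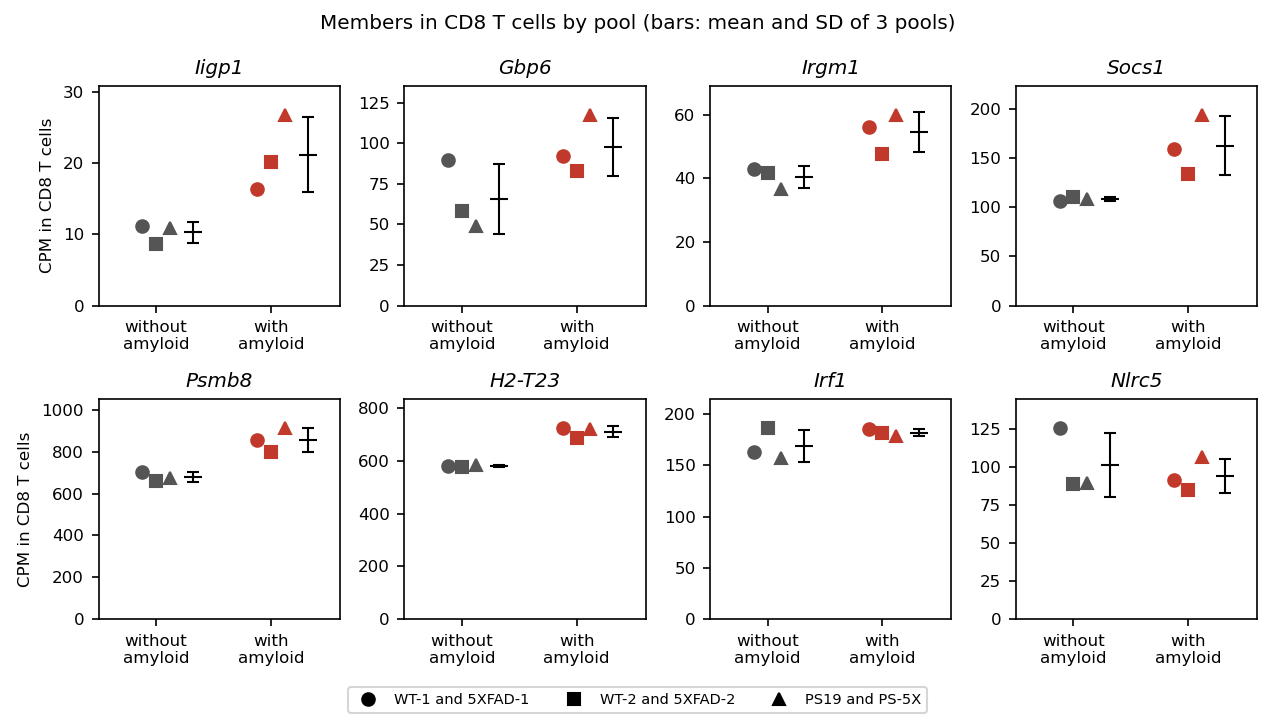
Level of 8 members in CD8 T cells, in CPM from 0, with 1 symbol per pool (grey without, red with amyloid, equal shapes for pools whose genotypes differ by amyloid alone) and the mean and SD of 3 pools. Iigp1 lies at 16.4 to 26.8 CPM in the 3 pools with amyloid and at 8.64 to 11.2 CPM in the 3 without, while Nlrc5 overlaps.

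Whether a member passed depended on the model. With the sequencing run as a block, 4 members were called higher, Iigp1 (adjusted p = 0.00375), Socs1 (0.0134), Psmb8 (0.0398) and Irgm1 (0.0473), where 1.36% of genes were called higher. DESeq2 called Iigp1, Socs1, Psmb8 and H2-T23, at a background of 0.545%. Leaving out single pools gave 0 to 3 calls. Leaving out the interferon-marked cluster brought the median log2 difference to 0.12 and the members without overlap from 19 to 12, among them Iigp1, Socs1, Psmb8 and H2-T23, where 7.23% of genes lay above. Iigp1 then measured 9.34 ± 1.72 CPM with and 6.62 ± 0.82 CPM without amyloid (SD, n = 3 each), and its log2 difference in the 3 pairs was 0.32, 0.84 and 0.30 in place of 0.55, 1.23 and 1.30. Markers of other cells and states were measured in the same CD8 sums: naive-marked clusters held 18.0% to 33.6% of CD8 cells with amyloid and 33.0% to 47.7% without, and the summed NK cell markers were 21.0 to 35.5 CPM with and 40.6 to 46.8 CPM without. The class II markers overlapped, at 4.5 to 17.4 CPM with and 3.19 to 10.6 CPM without, with the highest value in PS-5X. The summed microglial markers were 127 to 132 CPM with and 117 to 133 CPM without. The part of the NK cell markers in the result was not tested.

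Without the naive-marked clusters, 0 members were called in CD8 T cells, where 0.00919% of 10887 genes were called higher and 0% lower. The log2 difference was above 0 for 30 of 31, with a median of 0.26, and 22 had an unadjusted p under 0.05, as had 1113 of all genes. Iigp1 was again the member with the smallest adjusted p (1.39 ± 0.20 (SE), adjusted p = 0.066). Without WT-1, 8 members were called higher here. They were Iigp1, Gbp6, Gbp9, Irgm1, Tgtp2, Igtp, Socs1 and Psmb8, and DESeq2 called 4. With the sequencing run as a block 2 were called, Iigp1 and Socs1. The shares of all genes called in these refits are not given here, so the counts cannot be set against other genes.

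For tau in CD8 T cells 0 members were called at a background of 0% in either direction, the median log2 difference was 0.03, and 1 member had an unadjusted p under 0.05, as had 753 of all genes. DESeq2 called 0 members. Tau rests on the single PS19 and PS-5X pools.

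In CD4 T cells 0 members were called with amyloid, at a background of 0.0406% higher and 0% lower of 9844 genes. The log2 difference was above 0 for 27 of 31 with a median of 0.13, 3 members and 589 of all genes had an unadjusted p under 0.05, and DESeq2 called 0 members. For 8 members the groups did not overlap, all with amyloid above, where 5.63% of genes lay above. They were Gbp3, Irgm1, Psmb8, Psme1, Tapbp, H2-K1, H2-T22 and H2-T23. The class II markers were 25.2 to 46.4 CPM with amyloid and 12.2 to 28.2 CPM without in CD4 T cells, and their part was not tested. Iigp1 measured 15.6 to 24.7 CPM (median 21.6) in CD4 T cells, and the groups overlapped (0.39 ± 0.20 (SE), adjusted p = 0.863). In γδ T cells 29 members were tested, Gbp3 and Iigp1 having too few UMIs, and 0 were called, at a background of 0.103% higher and 0% lower. The median was 0.09, 4 members and 463 of all genes had an unadjusted p under 0.05, and DESeq2 called 0. Gbp4, Irgm1, Tgtp1 and Psmb8 lay above without overlap and Nlrc5 below, where 5.65% of genes lay above and 4.65% below. The class II markers ranged from 28.5 to 225 CPM in γδ T cells with amyloid and from 52.1 to 76.6 CPM without, and their part was not tested.

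The difference of the amyloid effect between CD4 and CD8 T cells was tested directly. Of the 31 members 0 were called, where 0.194% of 10816 genes were called higher and 0.139% lower. The effect was smaller in CD4 than in CD8 T cells for 28 of 31 members, with a median of -0.12 and 8 unadjusted p under 0.05, as in 858 of all genes, and DESeq2 called 0 members. Iigp1 (-0.70 ± 0.19 (SE), adjusted p = 0.162) and Gbp6 (-0.53 ± 0.15 (SE), adjusted p = 0.162) came closest to the threshold. Without the interferon-marked CD8 cluster the median was -0.02. In the lists of other genes, Gbp10, closely similar to Gbp6 and so uncertain (-1.70 ± 0.34 (SE), adjusted p = 0.0281), and Isg20, an exonuclease induced by interferons (-1.03 ± 0.17 (SE), adjusted p = 0.00621), passed with a smaller effect in CD4 T cells.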

How the data were processed

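The authors deposited UMI counts per gene and barcode and receptor contigs, both made with Cell Ranger 6.0.1, per the submitters' processing notes. GRCm38 and mm10 are both listed there as builds, with no role given. Each barcode was given to a pool by the pool name in the deposited contig table. Barcodes under 500 genes or over 10% of UMIs from mitochondrial genes were left out, and doublets were removed per pool by their Scrublet score at 0.8% per 1000 barcodes. Cells were clustered with scanpy 1.11.5 and leidenalg 0.10.2 (Leiden at resolution 1, on 30 components of 2000 variable genes with 15 neighbours per cell), without the 31 members and without receptor genes. Classes were named from lead markers (Cd8b1, Cd4, Trdc). A limit of 25% of cells with another lead marker was set after the clusters were seen. Naive-marked clusters carry at least 6 naive markers.

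Counts were summed per pool, class and clone size, for sums of at least 20 cells. The 13 comparisons across all genes used edgeR 4.0.16 (quasi-likelihood test after filterByExpr and TMM scaling, with Benjamini-Hochberg adjusted p under 0.05 as the threshold) under R 4.3.3. Class and clone size fits held the pool as a block, and genotype fits held amyloid and tau. The fitting was tested on simulated data. DESeq2 1.42.0, other size factors, no gene filter, each pool left out, doublets kept, other class definitions and cell subsets were tried as alternatives. Replicate numbers of WT and 5XFAD mark the sequencing run. Same-numbered pools deviated together (r = 0.435 over genes in CD8, 0.192 in CD4 and 0.136 in γδ T cells), and a fit with the run as a block was made.

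Members, lists and the rule for naming genes were chosen with earlier results of these data known. Values by pool are given for the members with the smallest p in each comparison, up to 6 in each direction, and for Irf1, Gbp2, Iigp1, Psmb8, Tap1, B2m, H2-K1 and Socs1 where a result turns on them. Promoters are from RefSeq (GRCm38.p6). Values of 1 gene of the signalling list are not reported here.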

Additional observations from a re-analysis of the deposited data

How the results depend on the processing

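Counts below are members called. Shares of all genes are given above for some settings only, so without them a count cannot be set against other genes. For expanded against singleton non-naive CD8 T cells (10 called) DESeq2 gave 6, the cells without shared receptors 4, the cells without the largest clone of each pool 4, and leaving out single pools 4 to 10. For large against small clones (3 called) DESeq2 gave 5, leaving out the interferon-marked cluster 1, shared receptors 1 or the largest clones 1, and leaving out single pools 0 to 3. For expanded against singleton CD4 T cells (9 called) DESeq2 gave 5, leaving out shared receptors 5 or naive-marked clusters 1, and leaving out single pools 3 to 7. With amyloid in CD8 T cells (0 called) DESeq2 gave 4, no gene filter 8, the replicate block by sequencing run 4, that block without WT-1 3, and leaving out single pools 0 to 3. With amyloid in non-naive CD8 T cells (0 called) DESeq2 gave 4, no gene filter 8, the replicate block 2, that block without WT-1 14, and leaving out single pools 0 to 8, with 8 without WT-1. The replicate block gave 0 calls for tau in CD8 and for amyloid in CD4 and γδ T cells. For the difference between CD4 and CD8 T cells (0 called) no gene filter gave 1, and leaving out single pools 0 to 1. In the other comparisons every alternative that was run stayed within 1.5 times the count. Leaving out single pools gave 16 to 19 for CD4 against CD8, 27 to 28 for γδ against CD8, 26 to 27 for γδ against CD4 and 18 to 22 for expanded against singleton CD8 T cells.

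Gbp6 in γδ against CD4 T cells was -0.0397 on the log2 scale (adjusted p = 0.875, edgeR) with classes set from the UMIs of each cell. With amyloid in CD8 T cells, Tgtp1 turned to 0.12 without WT-1, 0.25 without PS19, 0.25 without PS-5X and 0.092 with the block and without WT-1 (-0.46 to 0.25 over the pools left out), and Nlrc5 turned to 0.10 without WT-1 and 0.10 with the block and without WT-1 (-0.26 to 0.10 over the pools left out). Neither had passed. The cause of these changes was not tested. The alternatives on the block without WT-1, the largest clones, 1 cluster mostly of a single pool and the naive-marked CD4 clusters were chosen after seeing the data. PS19 and PS-5X are single pools, and the lone pool is assumed to vary like the others. Few UMIs limit Gbp3 (24), Gbp5 (44) and Iigp1 (10) in γδ T cells, whose levels rest on 41 to 286 cells per pool.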
